A study of Bos taurus with 15 samples.

Results

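The genes examined here are 10 genes of the microRNA (miRNA) pathway, DROSHA, DGCR8, XPO5, DICER1, TARBP2, AGO1, AGO2, AGO3, AGO4 and TNRC6A, chosen by symbol among the 10832 bovine genes of the filtered count table. All 10 were present in that table. They were followed in pools of bovine blastocysts produced in vitro, cultured with oviductal extracellular vesicles (oEVs) used fresh (FeEV) or after freezing and thawing (FoEV), or without oEVs as a control (Co). The vesicles came from oviducts of postovulatory cows collected at a slaughterhouse, and each preparation was split into the fresh and the frozen portion, so that the freeze-thaw step separates FoEV from FeEV. Each treatment had 5 libraries of total RNA, and each library was made from 1 ng of RNA of 1 pool of 8 to 14 embryos. The embryos were labelled as day 7 in the sample labels and as 8 days of culture in the methods. There were 6 pools of Co, 7 of FeEV and 8 of FoEV, of which the 5 with the best RNA in each treatment were sequenced. As nothing in the sources states that the pools of a treatment came from separate fertilization runs, the p-values below measure the spread between these pools only.

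In miRNA biogenesis, the Microprocessor, made of the nuclease DROSHA and its partner DGCR8, cuts primary transcripts into hairpins, exportin 5 (XPO5) carries the hairpins out of the nucleus, and DICER1 with its partner TARBP2 cuts them into duplexes. One strand is loaded onto an Argonaute protein (AGO1 to AGO4), which recruits a GW182 protein such as TNRC6A and, through it, the deadenylases that silence the target mRNA. Mammalian embryos need DICER1 and AGO2 to develop, and oEVs carry miRNAs as part of their cargo, so the study design allows the question whether the machinery that makes and uses miRNAs differed between embryos that received oEVs and embryos that did not.

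None of the 10 genes differed between treatments beyond the spread between pools. In the quasi-likelihood F test of edgeR, 0 of 10 had an adjusted p under 0.05 when FoEV was compared with Co, FeEV with Co or FoEV with FeEV, and 0 of 10 had an unadjusted p under 0.05 in any of the 3 comparisons. Among all genes tested in that test, 0.00923% were called at an adjusted p under 0.05 in FoEV against Co, 0% in FeEV against Co and 0% in FoEV against FeEV. At an unadjusted p under 0.05 its shares over all genes were 15.1%, 4.15% and 8.52% in the same order. The likelihood ratio test with a robust dispersion and the Wald test of DESeq2 also gave 0 of 10 at an unadjusted p under 0.05 in each comparison. In FoEV against Co these 2 tests called 311 and 138 of all genes at an adjusted p under 0.05, beside 1 in the quasi-likelihood test. Over the alternatives listed below that left out no single library, 1486 to 2617 genes had an unadjusted p under 0.05 in FoEV against Co. In FeEV against Co there were 411 to 1136, and in FoEV against FeEV 680 to 2013. The ranges of the 5 libraries overlapped for all 10 genes in every comparison. Among all genes, 2.6%, 0.951% and 1.5% had ranges that did not overlap, shares so small that 0 of 10 does not set these genes apart.

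Levels are given as CPM, the counts of a gene relative to the library size, with library sizes scaled by TMM factors over the filtered genes. A CPM value also depends on transcript length, so levels are compared between libraries and not between genes. Per library, the 10 genes held from 31 counts (TARBP2) to 456 counts (DICER1). In pools of whole embryos, fewer cells of a type and less RNA per cell cannot be told apart. Reads were counted per gene, and the strand setting of the counting is not given in the sources used here.

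The libraries held between 2136713 and 4058887 counts in all, and every FoEV library (3392613 to 4058887) held more than every Co library (2571558 to 2977004). Genes of ribosomal RNA took 15.5% to 28.2% of the counts. The mean correlations of log2 CPM between a library and the others of its group ran from 0.955 to 0.970. The lowest was that of FoEV replicate 4, which also had the highest share of ribosomal RNA genes, 28.2%. The 9 markers of trophectoderm summed to 7843 to 10706 CPM in Co, 8354 to 12414 CPM in FeEV and 10125 to 13501 CPM in FoEV, the 6 markers of inner cell mass and epiblast to 459 to 572 CPM in Co, 471 to 558 CPM in FeEV and 422 to 617 CPM in FoEV, and the 6 of hypoblast to 542 to 860 CPM over all libraries. The 6 markers of oviduct epithelium summed to 14.0 to 35.7 CPM. Their highest counts in a library were 6 (OVGP1), 46 (PAX8), 4 (FOXJ1), 4 (DNAH5), 96 (MUC16) and 17 (ESR1). The 7 of cumulus and granulosa cells summed to 53.3 to 154 CPM, with PTX3 at 0 in 14 of 15 libraries. Their highest counts were 140 (CYP19A1), 43 (FSHR), 20 (STAR), 449 (CYP11A1), 13 (HAS2), 1 (PTX3) and 6 (FOXL2). Of the 24 markers in the filtered table, 0 had an edgeR adjusted p under 0.05 in any comparison. At an unadjusted p under 0.05 there were 5, 3 and 1 in FoEV against Co, FeEV against Co and FoEV against FeEV, beside 15.1%, 4.15% and 8.52% of all genes. The 5 were the trophectoderm markers KRT18 (log2 fold change 0.55, edgeR adjusted p = 0.0818), GATA2 (0.34), KRT8 (0.25) and GATA3 (0.19, without overlap between FoEV and Co libraries) and the epiblast marker NANOG (-0.84, edgeR adjusted p = 0.178). In FeEV against Co they were NANOG (-0.62), MUC16 (-0.88) and FSHR (-0.55), each with an edgeR adjusted p of 1.00, and between the oEV treatments KRT18 (0.29). The other markers of inner cell mass and epiblast did not share the direction of NANOG throughout. In FoEV against Co they had 0.21 (POU5F1), 0.07 (SALL4), -0.03 (SOX2), -0.06 (DPPA3) and -0.24 (PRDM14). In FeEV against Co the same markers had 0.13, 0.09, -0.32, 0.04 and -0.19. The tested markers listed with FSHR had 0.23 (CYP19A1), -0.01 (STAR) and -0.22 (CYP11A1) in FeEV against Co, and PAX8, listed with MUC16, had -0.43. The part of depth and of these cell types in the values below was not tested.

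**Figure D1:**
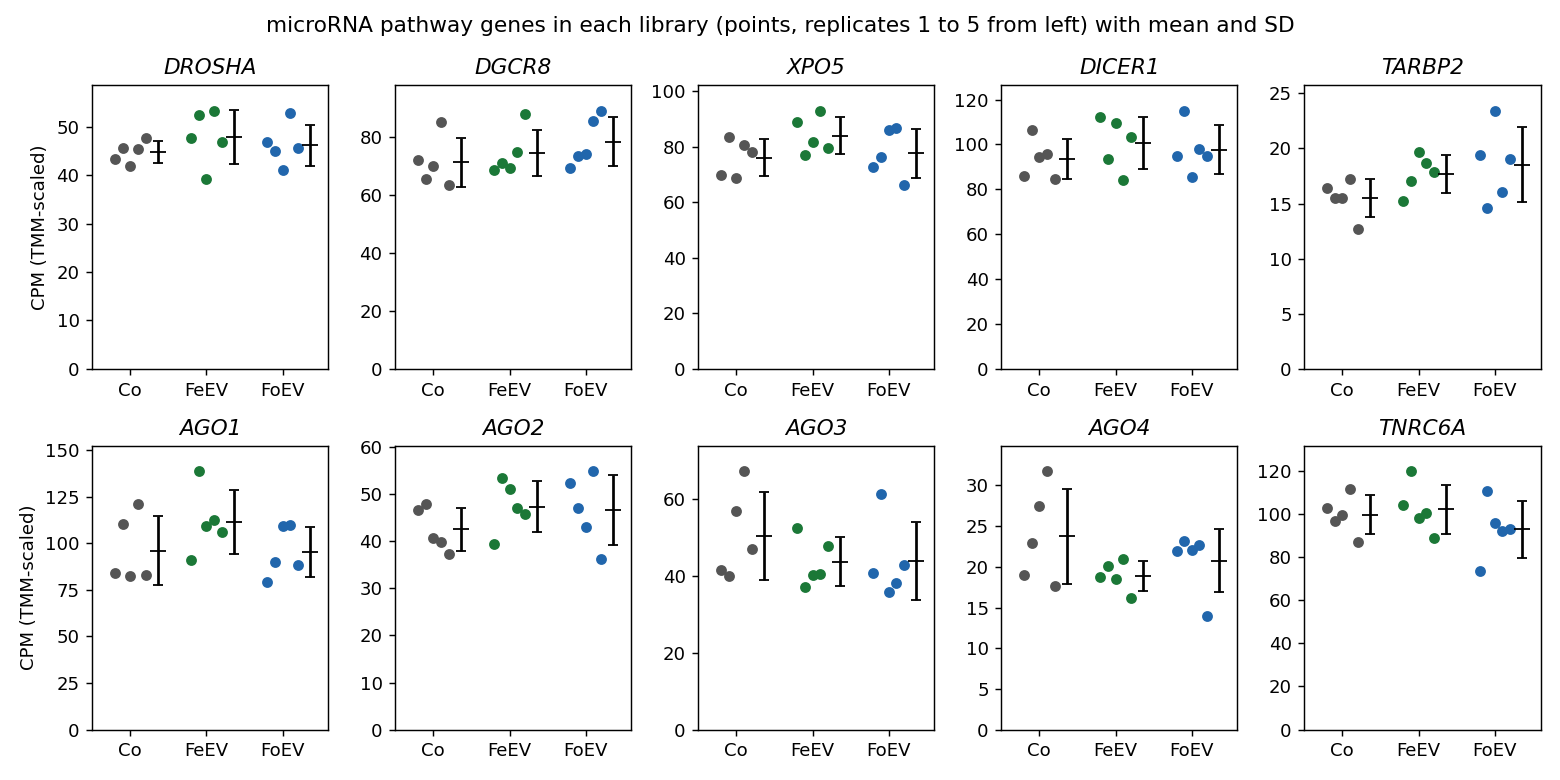
TMM-scaled CPM (y axes, starting at 0) of the 10 genes in the 5 libraries of each treatment (points, replicates 1 to 5 from left), with the mean and SD of each treatment beside them (bars). In all 10 panels the points of the 3 treatments overlap, AGO3 has 1 FoEV library at 61.3 CPM and AGO4 has 1 FoEV library at 13.9 CPM.

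DROSHA (gene 540168), the nuclease of the Microprocessor, had 43.4, 45.5, 41.9, 45.4 and 47.6 CPM in Co replicates 1 to 5. The FeEV libraries had 47.7, 52.4, 39.1, 53.3 and 46.9 CPM. In FoEV the values were 46.8, 44.9, 41.1, 52.8 and 45.5 CPM. The Co values of DROSHA lay inside the range of the FeEV libraries and inside that of the FoEV libraries. Its log2 fold change was 0.04 (SE 0.11) in FoEV against Co, 0.09 (SE 0.11) in FeEV against Co and -0.05 (SE 0.11) in FoEV against FeEV. Over the 15 libraries, the coefficient of variation of DROSHA was 8.99%, the smallest of the 10 genes, beside 8.30% that counting error alone gives at its mean of 145 counts.

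DGCR8 (gene 540254), the RNA-binding partner of DROSHA, had 71.8, 65.5, 70.0, 85.1 and 63.2 CPM in Co. In FeEV, DGCR8 had 68.5, 70.9, 69.1, 74.7 and 87.7 CPM. The FoEV libraries held 69.2, 73.4, 74.1, 85.5 and 88.9 CPM. The highest Co library, replicate 4, lay above 3 of the 5 FoEV libraries and 4 of the 5 FeEV libraries. DGCR8 differed by 0.14 (SE 0.11) between FoEV and Co, by 0.06 (SE 0.11) between FeEV and Co and by 0.07 (SE 0.11) between FoEV and FeEV on the log2 scale. The DROSHA-DGCR8 pair thus had 95% intervals of the difference that stayed between -0.27 and 0.36 in all 3 comparisons. In the reference annotation (ARS-UCD2.0, used for names only) the miRNA gene MIR1306 overlaps DGCR8, and it held 0 counts in the 15 libraries together, which allows up to 3 counts assigned to it. Reads of the overlap may have been given to DGCR8 or left out, so the 0 does not bound the reads that came from MIR1306.

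XPO5 (gene 100139154), the export receptor of miRNA hairpins, had 69.6, 83.3, 68.7, 80.7 and 78.0 CPM in Co. The values in FeEV were 88.8, 76.9, 81.6, 92.9 and 79.6 CPM. Those in FoEV were 72.7, 76.4, 86.0, 86.8 and 66.2 CPM. In FeEV, 2 libraries of XPO5 lay above every Co library, and in FoEV the lowest library lay below every Co library and the 2 highest above every one. The log2 fold change of XPO5 was 0.03 (SE 0.10) for FoEV against Co, 0.14 (SE 0.10, 95% interval -0.07 to 0.35) for FeEV against Co and -0.11 (SE 0.10) for FoEV against FeEV. XPO5 overlaps POLR1C in the reference annotation, whose mean of 31.5 counts stood beside 249 counts for XPO5, and without the strand setting reads of the overlap cannot be assigned to either gene with certainty.

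DICER1 (gene 337871), the nuclease that releases the miRNA duplex, had 86.0, 107, 94.5, 95.9 and 84.5 CPM in Co. In FeEV it had 112, 93.6, 109, 84.3 and 103 CPM. In FoEV it had 94.9, 115, 85.4, 98.2 and 94.9 CPM. The lowest DICER1 values of the 3 treatments were close to each other, at 84.5, 84.3 and 85.4 CPM, and the highest library was an FoEV library. DICER1 had log2 fold changes of 0.06 (SE 0.10), 0.11 (SE 0.10) and -0.05 (SE 0.10) in FoEV against Co, FeEV against Co and FoEV against FeEV. The 95% intervals of DICER1 ran from -0.15 to 0.28, from -0.11 to 0.32 and from -0.26 to 0.17.

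TARBP2 (gene 514674), which binds double-stranded RNA and works with DICER1, was the gene with the fewest counts, 31 to 85 per library. It had 16.4, 15.5, 15.5, 17.3 and 12.7 CPM in Co. The FeEV values were 15.2, 17.1, 19.7, 18.7 and 17.9 CPM. The FoEV values were 19.4, 14.6, 23.4, 16.0 and 19.1 CPM. In each oEV treatment 3 of the 5 libraries lay above every Co library, and the other 2 overlapped the Co range. TARBP2 had the largest log2 fold change of the 10 genes in FoEV against Co, 0.26 (SE 0.16, 95% interval -0.06 to 0.58, edgeR adjusted p = 0.434), which was 0.15 without FoEV replicate 3. The values for FeEV against Co and FoEV against FeEV were 0.19 (SE 0.16) and 0.07 (SE 0.15). Counting error alone gives a variation of 13.5% at the mean of 54.9 counts of TARBP2, beside the 15.1% measured over the 15 libraries.

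**Figure D2:**
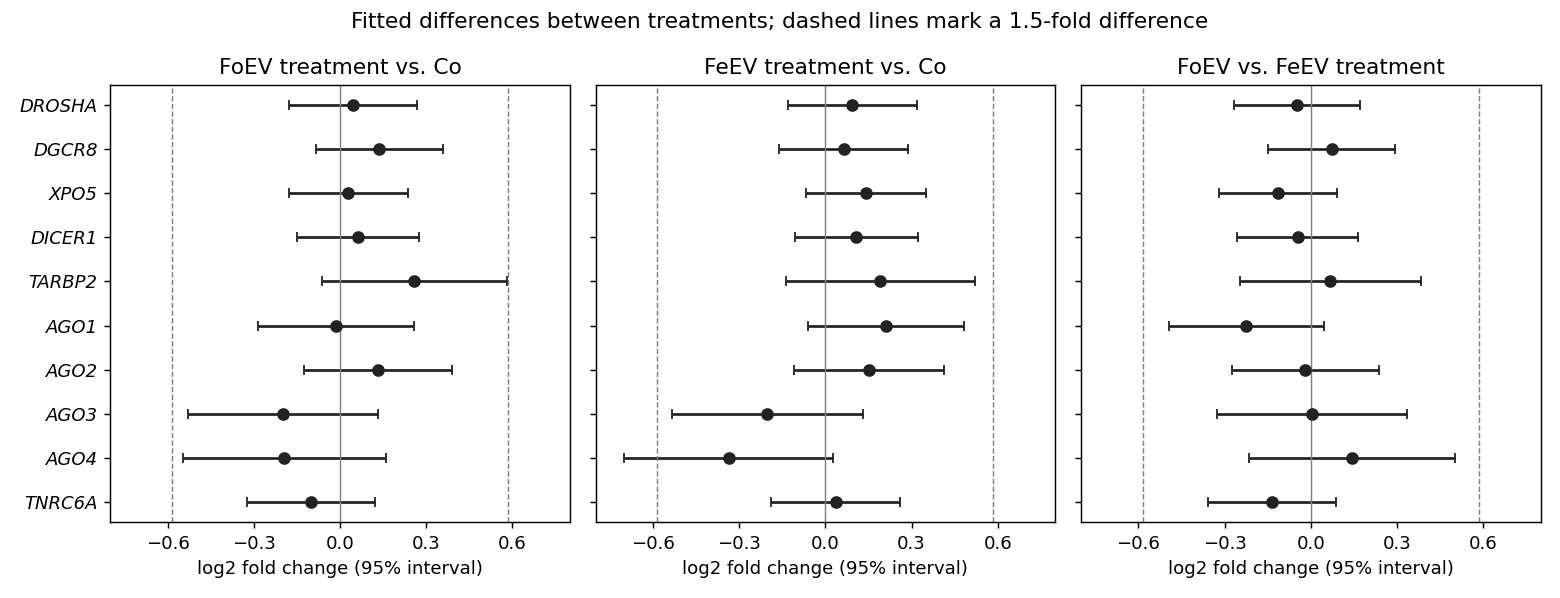
Fitted log2 fold changes (x axes) of the 10 genes with 95% intervals in the 3 comparisons, where the solid line marks no difference and the dashed lines a 1.5-fold difference in either direction. Every interval includes 0, and that of AGO4 in FeEV against Co, which reaches -0.70, is the only interval of the 30 that crosses a dashed line.

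Among the Argonautes, the proteins that hold the mature miRNA, AGO1 (gene 522972) had 83.9, 110.3, 82.2, 121 and 82.9 CPM in Co. In FeEV, AGO1 had 90.9, 139, 109, 112 and 106 CPM. In FoEV, it had 79.4, 89.8, 109, 109.8 and 88.6 CPM. The Co libraries of AGO1 comprised 3 between 82.2 and 83.9 CPM, below every FeEV library, and 2 inside the FeEV range. The largest difference of AGO1 was that between the oEV treatments, with a log2 fold change of -0.22 for FoEV against FeEV (SE 0.13, 95% interval -0.49 to 0.05, edgeR adjusted p = 0.626). It was 0.21 (SE 0.13) for FeEV against Co and -0.01 (SE 0.13) for FoEV against Co. Without FeEV replicate 2, the highest library of AGO1, it was -0.13 for FoEV against FeEV and 0.12 for FeEV against Co.

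AGO2 (gene 404130), the Argonaute known to cut its targets, had 46.7, 47.9, 40.6, 39.7 and 37.3 CPM in Co. The FeEV libraries had 39.3, 53.5, 51.0, 46.9 and 45.8 CPM. The FoEV libraries had 52.3, 46.9, 43.0, 54.8 and 36.3 CPM. In both oEV treatments 2 libraries of AGO2 lay above every Co library, and the lowest of the 15 values was an FoEV value. AGO2 had log2 fold changes of 0.13 (SE 0.12) and 0.15 (SE 0.13) for FoEV and FeEV against Co and of -0.02 (SE 0.12) between the oEV treatments.

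AGO3 (gene 406231) had 41.6, 39.8, 56.8, 67.0 and 46.8 CPM in Co. In FeEV, the values of AGO3 were 52.5, 37.1, 40.0, 40.5 and 47.8 CPM. In FoEV, they were 40.8, 61.3, 35.8, 38.1 and 42.8 CPM. Co replicates 3 and 4 were the highest in Co, and FoEV replicate 2 lay above all the other FoEV libraries, at 61.3 CPM against 35.8 to 42.8 CPM. The log2 fold change of AGO3 was -0.20 (SE 0.16, 95% interval -0.53 to 0.13, edgeR adjusted p = 0.573) for FoEV against Co. Without FoEV replicate 2 it was -0.35 (edgeR adjusted p = 0.217) and without Co replicate 4 it was -0.078 (edgeR adjusted p = 0.880). AGO3 differed by -0.20 (SE 0.16) between FeEV and Co, or by -0.081 without Co replicate 4, and its mean was 43.7 ± 10.2 CPM (SD, n = 5) in FoEV and 43.6 ± 6.32 CPM in FeEV.

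AGO4 (gene 528046) had 19.0, 22.9, 27.4, 31.7 and 17.6 CPM in Co. In FeEV, AGO4 had 18.8, 20.1, 18.5, 21.0 and 16.2 CPM. In FoEV, AGO4 had 22.0, 23.2, 22.0, 22.7 and 13.9 CPM. Co replicates 3 and 4, the highest Co libraries of AGO3, were the 2 highest of all 15 for AGO4, and 4 of the FoEV libraries lay between 22.0 and 23.2 CPM. The FeEV libraries of AGO4 lay inside or below the Co range and the log2 fold change was -0.34 (SE 0.18, 95% interval -0.70 to 0.03, edgeR adjusted p = 1.00), the largest of the 10 genes in any comparison. AGO4 had a log2 fold change of -0.19 (SE 0.17) for FoEV against Co and of 0.14 (SE 0.17) for FoEV against FeEV. Without Co replicate 4 the differences from Co were -0.22 for FeEV and -0.073 for FoEV, and without FoEV replicate 5 the latter was -0.079. The variation of AGO4 and AGO3 over the 15 libraries, 20.8% and 20.5%, was the largest of the 10 genes.

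AGO1, AGO3 and AGO4 lie next to each other in the reference annotation, in the order AGO3, AGO1, AGO4, and AGO2 lies elsewhere. The 4 genes are paralogs, and reads from stretches that they share may have been divided between them. The counts of the 4 genes were also expressed as shares of their sum in each library, which does not depend on the scaling between libraries and is given as a description without a test. Of the Argonaute counts, AGO1 took 45.0% ± 3.75 (SD, n = 5) in Co, beside 50.1% ± 3.76 in FeEV and 46.2% ± 5.17 in FoEV. AGO2 took 20.3% ± 3.33, 21.4% ± 1.35 and 22.6% ± 2.95, and AGO3 took 23.7% ± 3.78, 19.95% ± 4.26 and 21.2% ± 4.58. AGO4 took 11.1% ± 1.59 in Co, 8.56% ± 0.837 in FeEV and 10.01% ± 1.39 in FoEV. In Co the AGO4 shares ran from 9.56% to 13.2% and in FeEV from 7.51% to 9.48%, so that every FeEV library lay below every Co library, while the FoEV shares of 7.66% to 11.3% overlapped both. This separation was noticed after the shares of 4 genes had been compared over 3 pairs of treatments, and a share depends on the counts of the other 3 genes as well. The fitted log2 fold change of AGO4 itself had overlapping library values and an interval that included 0.

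**Figure D3:**
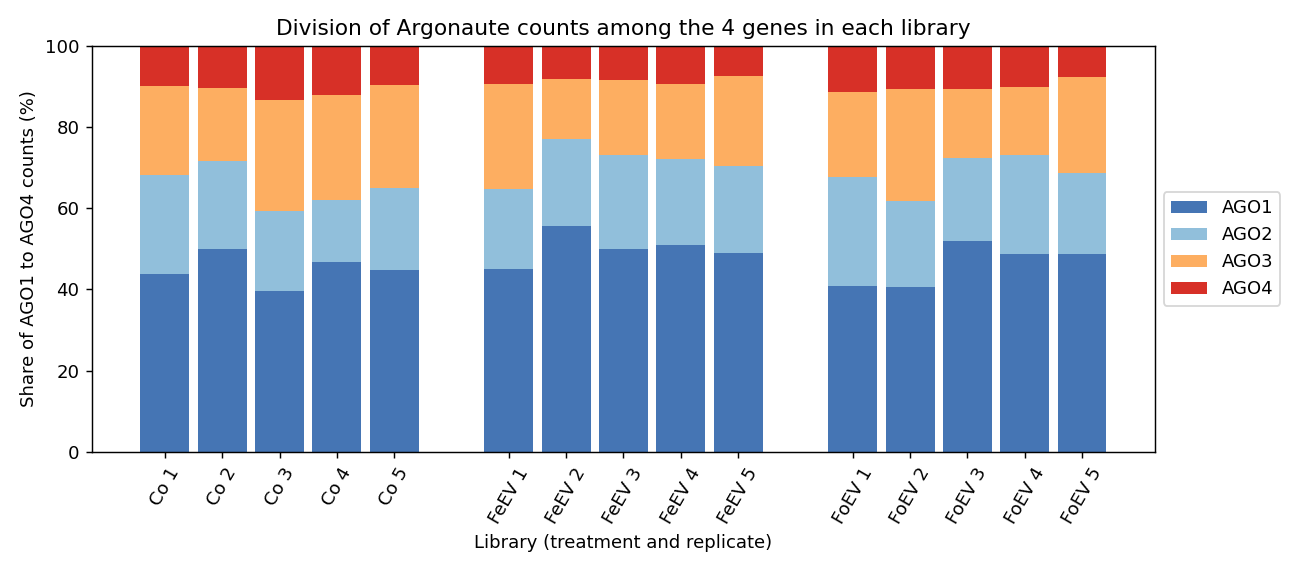
Share (%) of the summed AGO1 to AGO4 counts taken by each gene in each library, stacked to 100% (bars in treatment and replicate order). AGO1 takes 39.7% to 55.6% in every library and AGO4 the smallest part, 7.51% to 13.2%.

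TNRC6A (gene 541118), the GW182 protein of the list, which links Argonautes to deadenylation, had 103, 96.5, 99.6, 112 and 87.0 CPM in Co. In FeEV, TNRC6A had 104, 119.6, 98.2, 100.2 and 88.5 CPM. In FoEV, TNRC6A had 73.4, 110.5, 95.6, 91.8 and 93.0 CPM. FoEV replicate 1 was the lowest of the 15 libraries, and the other 4 FoEV libraries lay inside the Co range. The log2 fold change was -0.10 (SE 0.11) for FoEV against Co, 0.04 (SE 0.11) for FeEV against Co and -0.14 (SE 0.11, 95% interval -0.36 to 0.09) for FoEV against FeEV.

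The other GW182 genes, TNRC6B and TNRC6C, are not among the 10 and were read from the same fit. TNRC6B had 76.6, 61.7, 65.5, 62.2 and 60.7 CPM in Co. In FeEV, TNRC6B had 76.3, 69.8, 81.3, 77.9 and 82.4 CPM. In FoEV, TNRC6B had 87.3, 73.9, 65.3, 83.8 and 76.1 CPM. Apart from Co replicate 1, all Co libraries of TNRC6B lay below all FeEV libraries. The log2 fold change of TNRC6B was 0.25 (SE 0.10, 95% interval 0.04 to 0.46, edgeR adjusted p = 1.00) for FeEV against Co and 0.24 (SE 0.10, 95% interval 0.03 to 0.45, edgeR adjusted p = 0.257) for FoEV against Co, and both comparisons share the Co libraries. It was -0.01 (SE 0.10) between the oEV treatments. TNRC6C ranged from 84.7 to 138 CPM in Co, 95.4 to 119 CPM in FeEV and 88.0 to 117 CPM in FoEV, with log2 fold changes of 0.04 (SE 0.12) for FeEV and -0.09 (SE 0.12) for FoEV against Co.

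Over the 10 genes together, 6 had a positive and 4 a negative log2 fold change in FoEV against Co. The values lay between -0.20 and 0.26, with a median of 0.04. The edgeR adjusted p ran from 0.434 to 0.973. In FeEV against Co, 8 were positive and 2, AGO3 and AGO4, negative, with values between -0.34 and 0.21 around a median of 0.10 and an edgeR adjusted p of 1.00 for each gene. In FoEV against FeEV, 4 were positive and 6 negative, with values between -0.22 and 0.14 around a median of -0.03 and an edgeR adjusted p from 0.626 to 0.998. The median over all genes tested was 0.01, 0.00 and 0.01 in the 3 comparisons. The median size of the difference, without its sign, was 0.12 for the 10 genes beside 0.16 for all genes in FoEV against Co, 0.15 beside 0.11 in FeEV against Co and 0.07 beside 0.14 in FoEV against FeEV. A 1.5-fold difference (0.58 on the log2 scale) lay outside the 95% interval of all 10 genes in FoEV against Co and in FoEV against FeEV and of 9 of 10 in FeEV against Co, where AGO4 was the exception. Differences smaller than these intervals were not detectable with 5 libraries per treatment at this depth.

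The coefficient of variation over the 15 libraries had a median of 12.2% for the 10 genes, from 8.99% (DROSHA) to 20.8% (AGO4). For 7 of the 10 genes it lay under 15.7%, the median of the 5229 genes whose mean counts fell between those of TARBP2 and AGO1, and the median of all 10832 genes was 18.2%. Counting error alone gives 13.5% at the mean counts of TARBP2 and 5.64% at those of AGO1. The 5229 genes were not matched to the counts of each gene, so this comparison does not separate depth from stability. The biological coefficient of variation that edgeR fitted ran from 0.0952 for DROSHA to 0.168 for AGO3, beside a common value of 0.159.

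Around these 10 genes, 98 further genes of the pathway were listed in 9 groups by role, and 92 of them were in the filtered table. No gene of the lists passed an adjusted p under 0.05 in the quasi-likelihood test of edgeR (0 of 92 in each comparison), nor in the Wald test of DESeq2, and 1 did in the likelihood ratio test with a robust dispersion, DIS3L2 in FoEV against Co. At an unadjusted p under 0.05 there were 13 genes in FoEV against Co, 2 in FeEV against Co and 7 in FoEV against FeEV. These were 14.1%, 2.17% and 7.61% of the 92, beside 15.1%, 4.15% and 8.52% of all genes, so the totals did not exceed those over all genes. In FoEV against Co, 11 of the 13 were lower and 2 higher in FoEV, which is 11.96% and 2.17% of the 92, beside 6.88% lower and 8.18% higher among all genes. In FeEV against Co, 1 was lower and 1 higher (1.09% each), beside 2.32% and 1.83% of all genes. In FoEV against FeEV, 6 were lower and 1 higher (6.52% and 1.09%), beside 3.69% and 4.83% of all genes. Of the 92 genes, 65 had a negative log2 fold change in FoEV against Co, with a median of -0.10, 56 in FeEV against Co, with a median of -0.03, and 61 in FoEV against FeEV, with a median of -0.06. Of all 10832 genes, 5167, 5304 and 5223 had a negative value in the same order. The size factors of DESeq2 in place of TMM left the counts of 13, 2 and 7 as they were, in both directions. Leaving out single libraries moved the 13 to 7 without Co replicate 4 and to 21 without FoEV replicate 2, the 2 to 1 without Co replicate 5, and the 7 to 4 without FeEV replicate 2 and to 12 without FoEV replicate 2. With the replicate block the counts were 18, 2 and 9, and with the block by description number 12, 3 and 3.

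**Figure D4:**
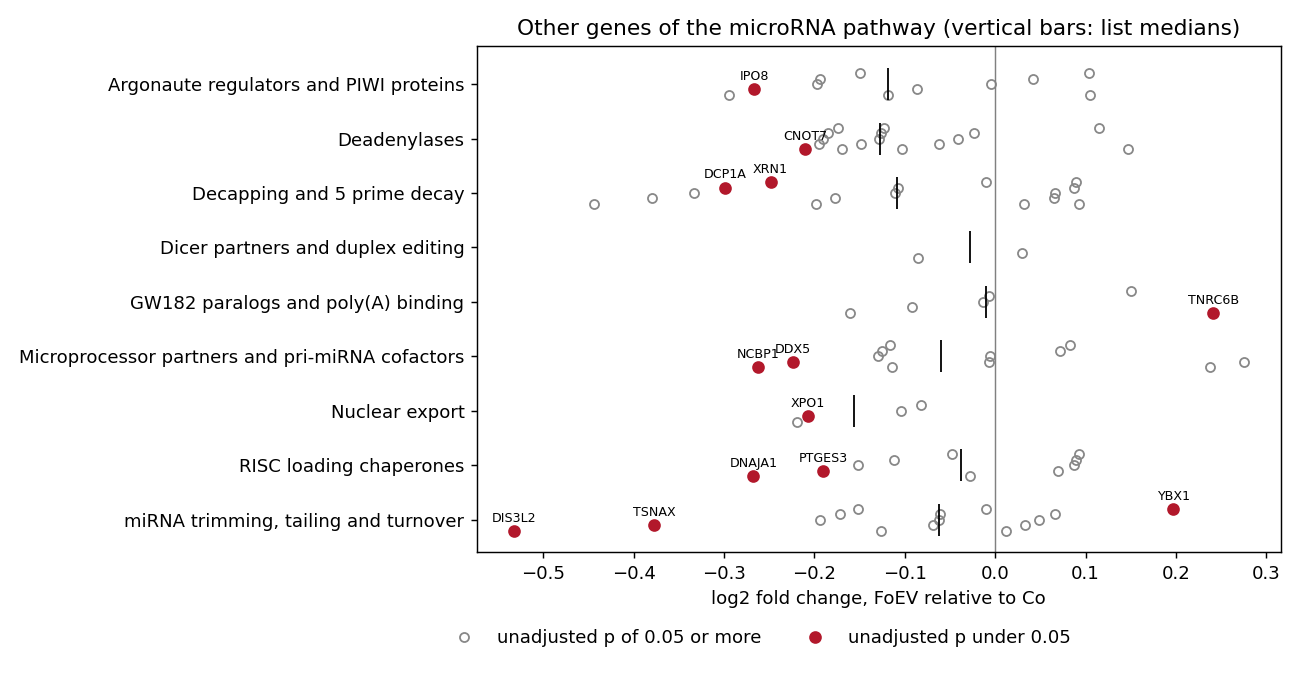
Fitted log2 fold changes of FoEV relative to Co (x axis) for the 92 further genes in 9 groups by role (points, spread vertically so that they can be seen), with the group medians (vertical bars) and, filled and named, the 13 genes with an unadjusted p under 0.05. DIS3L2 lies lowest at -0.53, TNRC6B and YBX1 are the 2 named genes above 0, and no gene passed the adjusted threshold in this test. The group labelled Deadenylases also holds other subunits and adaptors of the deadenylase complexes. That of miRNA trimming, tailing and turnover also holds RNA-binding proteins such as YBX1.

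Among 12 partners of the Microprocessor and cofactors of primary transcripts, 2 had an unadjusted p under 0.05 in FoEV against Co (16.7%, beside 15.1% of all genes). NCBP1, the large subunit of the nuclear cap-binding complex, had 73.6 ± 6.16 CPM (SD, n = 5) in FoEV, beside 88.4 ± 9.13 in Co and 88.6 ± 6.16 in FeEV. Its log2 fold change was -0.26 (SE 0.10, edgeR adjusted p = 0.207) against Co and -0.27 (SE 0.10, edgeR adjusted p = 0.496) against FeEV, and its FoEV and FeEV libraries did not overlap. DDX5, a helicase of the Microprocessor, had a log2 fold change of -0.22 (SE 0.09, edgeR adjusted p = 0.230) for FoEV against Co. Of the 4 export genes, XPO1, the general export receptor, had 356 ± 52.4 CPM in FoEV, 411 ± 28.6 in Co and 411 ± 20.7 in FeEV, with log2 fold changes of -0.21 (SE 0.09) in both comparisons and edgeR adjusted p of 0.294 and 0.563. In the group of Dicer partners and duplex editing, the Dicer partner PRKRA was outside the filtered table. The 2 genes left, the RNA-editing enzymes ADAR and ADARB1, which the naming rule does not select, did not reach an unadjusted p under 0.05 in any comparison.

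Among 10 chaperones of Argonaute loading, DNAJA1, a co-chaperone of the heat shock protein 70 family, and PTGES3, a co-chaperone of heat shock protein 90, had log2 fold changes of -0.27 (SE 0.10, edgeR adjusted p = 0.201) and -0.19 (SE 0.08, edgeR adjusted p = 0.278) in FoEV against Co. The group median was -0.04, and the other 8 did not reach an unadjusted p under 0.05. In the group of 11 regulators of Argonautes and PIWI proteins, IPO8, an importin that binds Argonautes, had -0.27 (SE 0.11, edgeR adjusted p = 0.270).

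The genes of mRNA decay downstream of TNRC6A were listed as 16 genes of deadenylation and 16 genes of decapping and 5′ decay in the filtered table. The genes of deadenylation comprised catalytic and other subunits of the deadenylase complexes and their adaptors. Of these 16 genes, 14 had a negative log2 fold change in FoEV against Co (5167 of 10832 over all genes), with a median of -0.13. An unadjusted p under 0.05 was reached by 1 of them (6.25%, beside 15.1% of all genes). That gene was CNOT7, a catalytic subunit of the CCR4-NOT complex, with 90.5 ± 6.96 CPM in FoEV, 105 ± 6.44 in Co and 106 ± 6.797 in FeEV. CNOT7 had log2 fold changes of -0.21 (SE 0.09, edgeR adjusted p = 0.252) against Co and -0.23 (SE 0.09, edgeR adjusted p = 0.501) against FeEV. CNOT6, another catalytic subunit of the complex, had 60.8 ± 3.99 CPM in FoEV and 75.6 ± 6.55 in FeEV without overlap and a log2 fold change of -0.31 (SE 0.09, edgeR adjusted p = 0.450). TOB2, an adaptor of this complex, had 19.4 ± 3.48 CPM in FeEV beside 26.4 ± 4.14 in Co and 25.4 ± 5.65 in FoEV, log2 fold changes of -0.44 (SE 0.17, edgeR adjusted p = 1.00) for FeEV against Co and 0.38 (SE 0.17, edgeR adjusted p = 0.560) for FoEV against FeEV. In the decapping group, DCP1A, a cofactor of decapping, and XRN1, the 5′ exonuclease, had -0.30 (SE 0.10, edgeR adjusted p = 0.188) and -0.25 (SE 0.11, edgeR adjusted p = 0.264) in FoEV against Co. DDX6, a helicase of the decapping complexes, had -0.22 (SE 0.10, edgeR adjusted p = 0.564) in FoEV against FeEV.

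Of 15 genes listed under miRNA trimming, tailing and turnover, 3 had an unadjusted p under 0.05 in FoEV against Co (20%, beside 15.1% of all genes). DIS3L2, an exonuclease that degrades uridylated RNAs such as marked let-7 precursors, had 13.2 ± 1.39 CPM (SD, n = 5) in FoEV, beside 19.2 ± 3.06 in Co and 16.8 ± 1.63 in FeEV. The FoEV and Co libraries of DIS3L2 did not overlap, and its log2 fold change of -0.53 (SE 0.15, 95% interval -0.85 to -0.22, edgeR adjusted p = 0.134) was the largest of the 13. In the likelihood ratio test with a robust dispersion it was -0.51 (edgeR adjusted p = 0.0437). Against FeEV it was -0.35 (SE 0.15, edgeR adjusted p = 0.553). TSNAX, a part of a nuclease that removes the cut passenger strand, had 26.1 ± 5.995 CPM in FoEV and 33.9 ± 5.43 in Co, a log2 fold change of -0.38 (SE 0.15, edgeR adjusted p = 0.241). YBX1 had 702 ± 48.5 CPM in FoEV and 612 ± 59.3 in Co, a log2 fold change of 0.20 (SE 0.08, edgeR adjusted p = 0.251). It is an abundant cold-shock domain RNA-binding protein, listed in this group but not an enzyme of trimming, tailing or turnover.

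The 6 listed genes outside the filtered table were PRKRA, DCP1B and LIN28B, with 7 to 27 counts per library, and PIWIL1, PIWIL3 and PIWIL4, which held 7, 26 and 2 counts over all libraries together. The fourth PIWI gene of the lists, PIWIL2, which the naming rule does not select, was in the filtered table. Its means were 53.3 CPM in Co, 49.9 in FeEV and 53.2 in FoEV. PIWI proteins bind small RNAs of the germ line.

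The unfiltered table also holds the miRNA genes themselves, as 797 loci of the reference type miRNA. Libraries of total RNA prepared for longer fragments do not capture mature miRNAs as such. The counts may come from precursors, from surrounding transcripts or from other RNAs whose reads were assigned to these loci, which was not tested. Of the 797 loci, 424 had 0 counts in all libraries, 304 had 1 to 14 counts in all, and 5 were in the filtered table. Their summed share of all counts was 0.0170%, 0.0134%, 0.0107%, 0.0126% and 0.0134% in Co replicates 1 to 5. In FeEV it was 0.0140%, 0.0192%, 0.0127%, 0.0119% and 0.0163%. In FoEV it was 0.0159%, 0.0162%, 0.0187%, 0.0268% and 0.0208%. From 254 to 908 counts stood behind each share, and the 95% Wilson interval of Co replicate 1 ran from 0.0156% to 0.0186%, for counting error only. The FoEV libraries lay above all Co libraries except Co replicate 1, which was above 2 of them. Genes of ribosomal RNA took a median of 23.2%, 20.2% and 20.7% of the counts in Co, FeEV and FoEV. In FoEV replicates 1 to 5 they took 15.9%, 19.0%, 20.7%, 28.2% and 22.5%, which is the order of the FoEV shares on miRNA loci. In Co and in FeEV the orders were not the same. The part of ribosomal RNA in the share on miRNA loci was not tested.

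**Figure D5:**
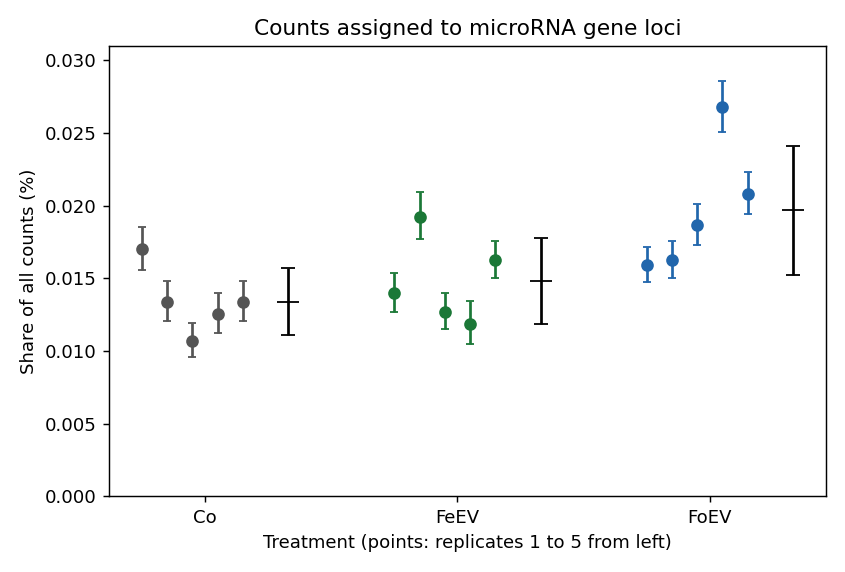
Share (%) of all counts on the 797 miRNA gene loci (y axis, starting at 0) in each library, with 95% Wilson intervals (coloured points and bars), and the mean and SD of each treatment (black). The means are 0.0134% in Co, 0.0148% in FeEV and 0.0197% in FoEV, and 1 FoEV library stands at 0.0268%.

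The mean log2 share differed by 0.54 between FoEV and Co (two-sided exact permutation test over all assignments of 5 libraries against 5, p = 0.0238, adjusted p = 0.0714 over 3 comparisons), by 0.14 between FeEV and Co (exact permutation p = 0.421, adjusted p = 0.421) and by 0.41 between FoEV and FeEV (exact permutation p = 0.0794, adjusted p = 0.119). No difference in this share therefore passed the adjusted threshold. Without Co replicate 1 the first difference was 0.63 (exact permutation p = 0.0159, adjusted p = 0.0476), and without any other single library of these 2 treatments the adjusted p of the exact permutation test was 0.0952 to 0.143. As a share of the counts of protein-coding genes the miRNA loci differed by 0.55 (exact permutation p = 0.0397, adjusted p = 0.119). One locus, MIR2887-1, held 28.5% of these counts, with a median of 28.4 CPM of all counts in Co libraries, 22.2 in FeEV libraries and 46.1 in FoEV libraries. With that locus removed, an alternative chosen after seeing the data, FoEV and Co differed by 0.39 (exact permutation p = 0.00794, the smallest that 5 libraries against 5 allow, adjusted p = 0.0238).

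The 5 miRNA loci with the highest mean were MIR2887-1, MIR2332, MIR2440, MIR6516 and MIR371, the same 5 that were in the filtered table. In FoEV against Co, MIR2332 had a log2 fold change of 1.13 (SE 0.26, edgeR adjusted p = 0.0757), with medians of 8.62 CPM of all counts in the Co libraries, 9.44 in the FeEV and 19.5 in the FoEV libraries. The lowest FoEV library of MIR2332 had 11.5 CPM and the highest Co library 10.4 CPM, so that these 2 treatments did not overlap. Its adjusted p was 0.0445 without FoEV replicate 2, 0.00273 in the likelihood ratio test with a robust dispersion and 0.0106 in the Wald test of DESeq2. MIR371 had 0.81 (SE 0.34, edgeR adjusted p = 0.252) and MIR6516 had 0.57 (SE 0.23, edgeR adjusted p = 0.238). MIR2887-1 had 0.99 (SE 0.60, edgeR adjusted p = 0.455) and MIR2440 had 0.44 (SE 0.63, edgeR adjusted p = 0.781). In the reference annotation MIR2332 overlaps UTP6, MIR2440 overlaps RPL3, MIR371 overlaps NLRP12 and MIR6516 overlaps a long noncoding RNA, and reads of a precursor and of its host transcript cannot be told apart in these counts. No annotated gene overlaps MIR2887-1, and the RNA that gave its reads was not tested.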

How the data were processed

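Total RNA of 15 pools of blastocysts, 5 per treatment, was sequenced by the authors with 125 base single-end reads after low-input library preparation with removal of ribosomal RNA. The authors deposited counts of reads per NCBI gene on ARS-UCD1.2 (bosTau9) without normalization, for 34773 genes and for 10832 genes left by their filter on low CPM. The methods name QuasR for counting, whereas the submitters' processing notes name Trim Galore 0.4.3.1, HISAT2 2.1.0 and featureCounts 1.6.3. Samples were grouped by their titles.

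The filtered counts were fitted with edgeR 4.0.16 in R 4.3.3 (TMM, estimateDisp, glmQLFit with robust=TRUE, glmQLFTest), in 1 model over 15 libraries with treatment as the only factor, and p-values were adjusted by Benjamini-Hochberg over all 10832 genes. Intervals are 95% intervals from the SE, the absolute log2 fold change divided by the square root of F. CPM values use TMM library sizes. Shares of counts used exact permutation tests in Python 3.11.15 with scipy 1.17.1, and figures were drawn with matplotlib 3.10.9. The tests were tested on simulated data. Total counts ran from 2136713 to 4058887 per library.

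The 10 genes, the pathway lists and the tests were chosen with earlier results of these data known. Genes named are the 10, TNRC6B and TNRC6C, the listed pathway genes with an unadjusted p under 0.05 (at most 6 of a list) and the 5 miRNA loci of highest mean CPM. Names, gene types and neighbours came from a later annotation (ARS-UCD2.0) joined by gene identifier, which matched 10709 of 10832 genes. The alternatives were the size factors of DESeq2, no filter, the filter stated in the methods, a robust dispersion with a likelihood ratio test, the Wald test of DESeq2 1.42.0, a fit of 2 treatments, blocks by replicate number or by the number in the sample descriptions, thinned counts, removal of rRNA genes and leaving out each library in turn. Corrections for length and GC content were not run, and gene and miRNA sequences were not used here. A result for 1 gene of the pathway lists is not reported here, and the lists are counted without it.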

Additional observations from a re-analysis of the deposited data

Results flagged for a closer look

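Among 33 groups of 5 libraries (the 10 genes and the share of counts on miRNA loci in each treatment), 2 held a library far from the others, and chance gives about 1 in 20. AGO3 had 61.3 CPM in FoEV replicate 2, whereas the other FoEV libraries had 35.8 to 42.8 CPM. AGO4 had 13.9 CPM in FoEV replicate 5, whereas the other FoEV libraries had 22.0 to 23.2 CPM.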

How the results depend on the processing

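Over 25 alternatives for each of the 30 log2 fold changes of the 10 genes, 718 of 750 values kept their direction and 32 reversed, in 11 of the 30, none of them larger than 0.15 in size. None of the 750 had an adjusted p under 0.05 (0, with 0.217 as the smallest, in edgeR or DESeq2), and 10 had an unadjusted p under 0.05. Reversed values were 0.012 for AGO1 in FoEV treatment vs. Co with the robust dispersion and 0.011 with thinned counts, 0.011 for DICER1 with the replicate block by description number and -0.010 for AGO4 with thinned counts in FoEV vs. FeEV treatment, and for AGO3 in FoEV vs. FeEV treatment -0.0006 with the size factors of DESeq2, -0.0065 with no filter, -0.070 with the robust dispersion, -0.0002 with the Wald test of DESeq2 and -0.0024 with the replicate block. Leaving out single libraries gave, in FoEV treatment vs. Co, -0.0043 to 0.11 for DICER1, -0.0044 to 0.077 for DROSHA, -0.018 to 0.080 for XPO5 and -0.073 to 0.083 for AGO1, in FeEV treatment vs. Co -0.0067 to 0.13 for DGCR8 and -0.027 to 0.084 for TNRC6A, and in FoEV vs. FeEV treatment -0.033 to 0.14 for TARBP2, -0.080 to 0.059 for AGO2 and -0.15 to 0.080 for AGO3. The paralogs gave -0.17 to 0.012 for TNRC6C in FoEV treatment vs. Co, -0.041 to 0.14 for TNRC6C in FeEV treatment vs. Co and -0.055 to 0.045 for TNRC6B in FoEV vs. FeEV treatment.

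In the comparison in which it had an unadjusted p under 0.05, each named pathway gene kept its direction under all 25 alternatives, and DIS3L2 in the robust dispersion test was the 1 with an adjusted p under 0.05. The 5 miRNA loci kept their direction in FoEV treatment vs. Co. The adjusted p of MIR2332 ran from 0.000308 to 0.266 and was under 0.05 in 5 of 25 alternatives, namely no filter, the robust dispersion, the Wald test of DESeq2, the replicate block (0.029) and without FoEV replicate 2.

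The number of genes called among all genes depended on the test and the filter. In FoEV treatment vs. Co it was 1, and 173 with no filter, 311 with the robust dispersion, 138 with the Wald test of DESeq2, 5 with 2 treatments in the fit, 3 with thinned counts, 57 with the replicate block, 12 with the replicate block by description number and 0 to 58 without single libraries (58 without FoEV replicate 2). In FeEV treatment vs. Co it was 0 in edgeR, and 13 with no filter, 6 with the robust dispersion, 1 with the Wald test of DESeq2 and 0 to 1 without single libraries. In FoEV vs. FeEV treatment it was 0 in edgeR, and 22, 31 and 3 with the same alternatives, 1 with the replicate block by description number and 0 to 1 without single libraries. None of the called genes was among the 10 under any alternative. For these counts the cause was not tested.

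The difference in the share on miRNA loci between FoEV and Co was 0.43 to 0.63 without single libraries and 0.39 without the most abundant locus. With the replicate block it was 0.54 (exact sign-flip p = 0.125, adjusted p = 0.281, where 5 pairs cannot go below 0.0625). The residuals of libraries with the same replicate number in their titles had correlations from -0.29 to 0.35 in FoEV and Co (mean 0.034), -0.21 to 0.42 in FeEV and Co (mean 0.14) and 0.013 to 0.44 in FoEV and FeEV (mean 0.19), beside means of -0.0084, -0.034 and -0.046 for libraries with different numbers. Not every pair by title number was over 0.1, and no label says what these numbers mark, so title numbers were not taken as pairs. The numbers in the sample descriptions are not the same as the title numbers for every library. Correlations by description number were not computed, so whether those numbers mark pairs was not tested. Whether libraries of FoEV and FeEV with the same number share a vesicle preparation is not given in the sources used here. With 31 to 85 counts per library, TARBP2 was limited most by depth.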
